A study of Sus scrofa domesticus with 4 samples.

Results

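The genes described here are 9 chaperones and stress regulators of the endoplasmic reticulum in the porcine anterior pituitary: CALR, CANX, HSPA5, HSP90B1, PDIA3, DNAJC3, ATF4, XBP1 and DDIT3. They were chosen by name, with earlier results of these data known. Every array probe whose transcript identifier the pig RefSeq annotation assigns to one of them was taken, which gave 25 probes of 7 genes, out of 6700 probes of 3029 genes that could be named in this way. HSPA5 and PDIA3 had no probe matched by this route and were not analysed here.

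Anterior pituitary tissue came from pregnant gilts on days 15 to 16 after natural mating, each found to carry conceptuses, and from cyclic gilts on days 15 to 16 of the estrous cycle, staged by their ovaries. Both groups were Large White x Polish Landrace animals, with 4 gilts in each. RNA of 1 pregnant and 1 cyclic gilt was labelled with Cy3 and Cy5 and hybridised together on each of 4 two-colour Agilent arrays, so each array gives the level of a probe in 2 animals and the log2 ratio of pregnant over cyclic. In the label fields Cy3 marks the pregnant animal of arrays 1 and 3, while the pregnant animal of arrays 2 and 4 is marked by Cy5, whereas the text of the labelling protocol names Cy3 for the pregnant animals throughout. The label fields were followed, and the authors' deposited ratios run in that direction too. Values with a single dye orientation are given where they turn a result.

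Most proteins that a pituitary cell secretes are folded in the endoplasmic reticulum. Calreticulin (CALR) and calnexin (CANX) are lectin chaperones that hold newly made glycoproteins, and HSP90B1 (GRP94) is the HSP90 family member of this compartment. DNAJC3 (p58IPK) is a cochaperone of the HSP70 protein of the lumen. When unfolded protein accumulates, sensor proteins in the membrane start the unfolded protein response: ERN1 splices the mRNA of XBP1, the kinase EIF2AK3 raises translation of ATF4, and ATF6 is cut to an active factor. Spliced XBP1 raises chaperone and degradation genes, ATF4 raises genes of amino acid supply, and DDIT3 (CHOP) lies downstream of ATF4 and is known for its part in cell death under lasting stress. Both XBP1 splicing and ATF4 translation are controlled after transcription, and the arrays measured total transcript.

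The labelled tissue carried its defining markers. All 8 of the secretory cell markers examined, GH1, PRL, POMC, CGA, LHB, FSHB, TSHB and POU1F1, were measured well above background in both groups. The sum of their normalized intensities, on the log2 scale, ranged from 19.7 to 20.4 in pregnant animals and from 20.1 to 20.7 in cyclic animals. Of the 8, 6 had a fitted ratio below 0, with a median of -0.21. LHB, the luteinizing hormone subunit, was below 0 on all 4 arrays (-0.78, -0.60, -0.19 and -0.12), with a fitted ratio of -0.42 ± 0.15 (SE, n = 4 arrays; unadjusted p = 0.0338, adjusted p = 0.605 by limma). PRL, prolactin, was at -0.31 ± 0.17, with ratios of -0.77, -0.38, 0.19 and -0.29. LHB and PRL were both lowest on array 1, whereas GH1, POMC and CGA were lowest on array 3 (-2.50, -0.84 and -0.94). On array 2 GH1, POMC and CGA were above 0 (0.74, 0.64 and 0.63). FSHB and POU1F1 had fitted ratios above 0 (0.42 ± 0.49 and 0.01 ± 0.14). The part of the secretory cells in the chaperone ratios was not tested. The TSHB probe varied most of the 8, from 9.92 to 16.0 in pregnant animals and from 11.6 to 17.0 in cyclic animals. Between 50.4% and 60.4% of probes were well above background in the pregnant channels and between 52.5% and 66.5% in the cyclic channels. The tissue was measured in bulk, so fewer cells of a type and less RNA per cell cannot be told apart.

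No probe of the 7 genes passed the adjusted threshold between pregnant and cyclic animals, and most of their ratios lay below 0, with ATF4 the gene that was lower in the pregnant animal on every array. In limma's moderated test with Benjamini-Hochberg adjustment over 25138 probes, 0 probes of any gene passed 0.05 (0%), and the smallest adjusted p was 0.1253. The adjusted p of the 25 probes lay between 0.605 and 0.812. At an unadjusted p under 0.05, 7 of the 25 were lower in pregnant animals and 0 were higher, whereas 4.57% of all probes were lower and 3.43% were higher at that level. The 7 were 5 of the 6 ATF4 probes, 1 of the 2 DNAJC3 probes and 1 of the 6 XBP1 probes. None of them was the brightest probe of its gene. Over all probes 1150 were lower and 862 higher, a split that became 1314 lower and 354 higher when median centring replaced loess, and 4 of the 25 were then lower.

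The fitted ratios of 21 of the 25 probes (84.0%) lay below 0, beside 52.4% of all probes, and their median was -0.24, beside -0.01 over all probes. Since the genes were chosen with earlier results known, neither these shares nor the count of lower probes above is a test of the list. Probes of 1 transcript read the same RNA and are not independent of each other, and the genes had between 1 and 8 probes each. By gene, with the brightest probe standing for each, 5 of 7 lay below 0. The unadjusted p of these 7 probes by limma lay between 0.0919 and 0.449, so none was under 0.05. The genes were not equally low on the 4 arrays: the mean over the 7 genes was -0.33, -0.48, -0.01 and -0.11 on arrays 1 to 4, and the medians of all probes there lay between -0.02 and 0.01. The count of probes below 0 was 17, 22, 13 and 20 of 25. By probe the medians of the 25 were -0.05, -0.61, -0.01 and -0.21, so array 2 was lowest on each of these measures, and whether array 1 or array 4 came next depended on whether genes or probes were weighted equally. With a single dye orientation only 5 of the 25 probes lay below 0 and group and dye could not be told apart.

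**Figure D1:**
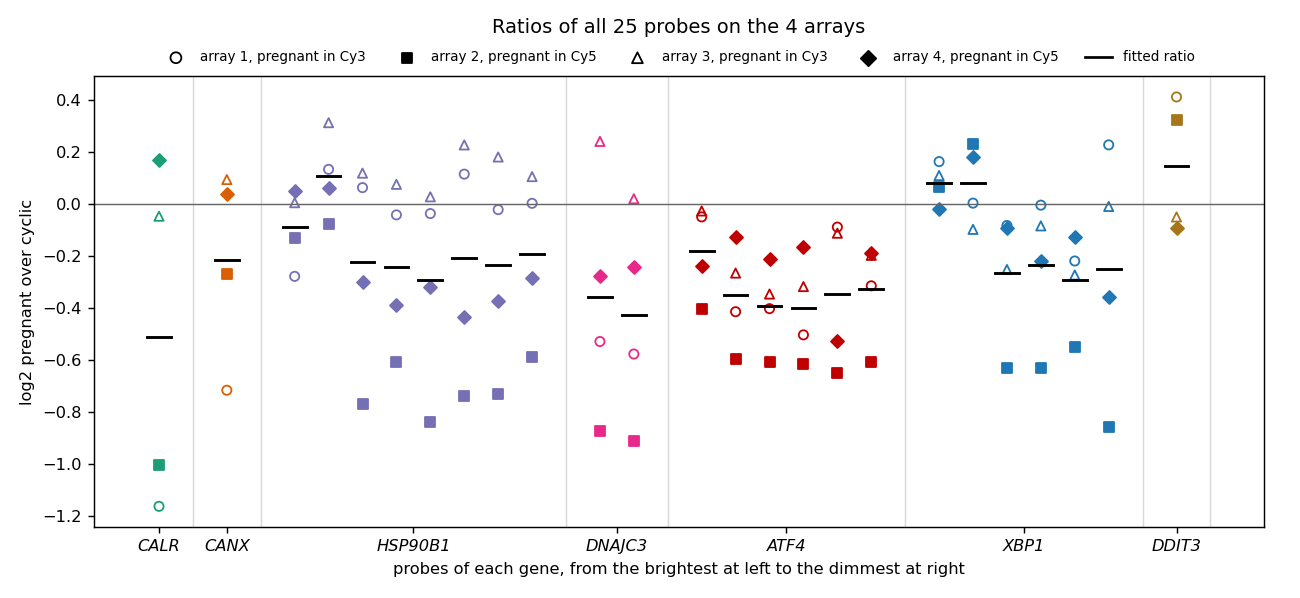
Log2 ratio of pregnant over cyclic (vertical axis) of each of the 25 probes on each of the 4 arrays, grouped by gene and ordered from the brightest probe of a gene at the left to its dimmest at the right; open symbols are arrays with the pregnant animal in Cy3, filled symbols those with Cy5, and bars are fitted ratios. All 24 values of the 6 ATF4 probes lie below 0, while the CALR, CANX and DNAJC3 values spread over both sides; with a single dye orientation the filled symbols would change sign.

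ATF4, the transcription factor whose translation EIF2AK3 raises, showed the most even pattern. All 6 of its probes lay below 0 on all 4 arrays, a pattern that 7.75% of all probes had. The mean over its 6 probes was 11.51, 11.28, 11.75 and 11.49 in the pregnant animals of arrays 1 to 4, against 11.80, 11.86, 11.96 and 11.73 in the cyclic animals, in log2 normalized intensity. The groups met at their edges, since the highest pregnant animal and the lowest cyclic animal, from different arrays, differed by less than the spread within either group. The ratio of the means was -0.30, -0.58, -0.21 and -0.24 on the 4 arrays, with a fitted value of -0.33 ± 0.11 (SE, n = 4 arrays), or 0.794-fold. Its unadjusted p was 0.0261 and its adjusted p 0.606 by limma, and exact two-sided sign flips of the 4 ratios gave a p of 1 in 8, the smallest that 4 arrays allow. This mean over probes was added to the plan. The planned test of a gene was that of its brightest probe, which gave an unadjusted p of 0.127 by limma.

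The 6 ATF4 probes differed among themselves in size. The brightest (A_72_P601533) had the smallest ratio, with 14.33, 13.95, 14.27 and 14.15 in pregnant animals against 14.38, 14.35, 14.30 and 14.39 in cyclic animals. Its fitted ratio was -0.18 ± 0.10 (SE, n = 4 arrays; unadjusted p = 0.127 by limma). The pregnant animals were spread on this probe (SD 0.170), with array 2 lowest, and the cyclic animals lay within a narrow band (SD 0.042). The other 5 probes had fitted ratios of -0.40 to -0.33 and unadjusted p of 0.0148 to 0.0344, each with an adjusted p of 0.605. The lowest p was that of A_72_P689016, which read 11.02, 10.77, 11.17 and 10.79 in pregnant animals against 11.11, 11.42, 11.28 and 11.32 in cyclic animals. Like the brightest probe, it was furthest below 0 on arrays 2 and 4 (-0.65 and -0.53) and closer to 0 on arrays 1 and 3 (-0.09 and -0.11). Arrays 2 and 4 are those with the pregnant animal in Cy5. The fitted dye effect, red over green, was -0.24 for this probe and -0.14 for the brightest, against -0.07 to 0.01 for the other ATF4 probes.

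On 2 of the ATF4 probes every pregnant animal lay below every cyclic animal, which was the case for 1.03% of all probes; none of the 25 had every pregnant animal above every cyclic one, the case for 1.08%. The first of them (A_72_P284859) read 11.40, 11.07, 11.58 and 11.48 in pregnant animals against 11.81, 11.68, 11.93 and 11.69 in cyclic animals. Its fitted ratio was -0.39 ± 0.11 (SE, n = 4 arrays). The second (A_72_P644140) read 11.20, 10.97, 11.46 and 11.41 in pregnant animals against 11.71, 11.58, 11.78 and 11.58 in cyclic animals, with a fitted ratio of -0.40 ± 0.12. The remaining probes overlapped between the groups in at least 1 animal.

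How many ATF4 probes reached an unadjusted p under 0.05 depended on single arrays. The count was 0 without array 1, 0 without array 2, 1 without array 3 and 5 without array 4. The number of lower probes over the whole array also moved, to 486, 388, 1502 and 2172 in the same order, from 1150 with all 4 arrays. All 6 fitted ratios stayed below 0, which was fixed in advance because every ratio of these probes was below 0 on every array. With a single dye orientation 1 of the 6 was below 0 and the mean over probes was 0.08.

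CALR had the lowest fitted ratio of the 7 genes, on 1 probe, and also the widest spread between arrays. Its level was 9.78, 10.98, 11.61 and 10.98 in pregnant animals (10.8 ± 0.767, SD, n = 4) against 10.94, 11.98, 11.66 and 10.81 in cyclic animals (11.3 ± 0.565, SD, n = 4). The ratio was -1.16 and -1.01 on arrays 1 and 2 but -0.05 and 0.17 on arrays 3 and 4, so the groups overlapped and only one pair of arrays was low. The fitted value was -0.51 ± 0.26 (SE, n = 4 arrays), with an unadjusted p of 0.104 and an adjusted p of 0.614 by limma. Without array 1 the fitted value was -0.23, without array 2 it was -0.22, and without array 3 or array 4 it was -0.79 and -0.81.

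CANX, the membrane-bound partner of CALR in the glycoprotein cycle, was low on the same arrays to a smaller degree. It read 12.41, 13.12, 13.51 and 13.16 in pregnant animals against 13.12, 13.39, 13.42 and 13.12 in cyclic animals. The pregnant animal of array 1 lay below all other animals, and the rest overlapped. The ratios were -0.72, -0.27, 0.09 and 0.04, and the fitted value was -0.21 ± 0.16 (SE, n = 4 arrays; adjusted p = 0.690 by limma). Without array 1 the fitted value was -0.01.

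**Figure D2:**
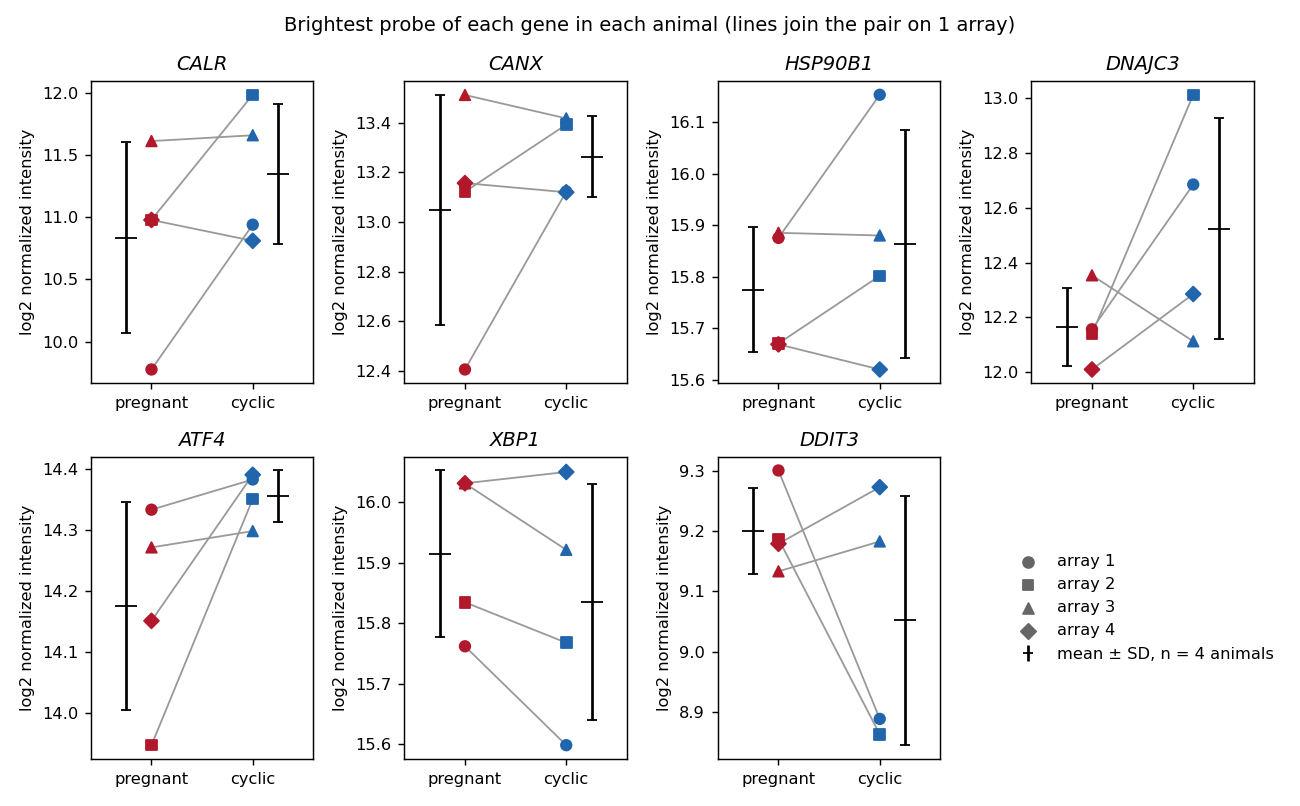
Log2 normalized intensity (vertical axis, its own range for each gene) of the brightest probe of each of the 7 genes in the 4 pregnant and 4 cyclic animals; lines join the 2 animals of an array and bars are the mean ± SD of 4 animals. The groups overlap for every gene; CALR and CANX are low in the pregnant animal of array 1, and ATF4 is the gene whose 4 lines all run upward to the cyclic animal.

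Among the other cell types that the tissue could hold, some markers but not all were low on arrays 1 and 2, as CALR was. CD79A, the only plasma and B cell marker of 5 with a probe, had ratios of -1.21, -1.20, -0.44 and 0.07 and a fitted ratio of -0.69 (unadjusted p = 0.0326, adjusted p = 0.605 by limma). Its level ranged from 7.63 to 8.68 in pregnant animals and from 8.61 to 9.50 in cyclic animals. The fibroblast markers COL1A2, DCN and LUM, 3 of 5 listed, had fitted ratios of -0.44, -0.10 and -0.08 on their brightest probes. Of the 8 other LUM probes, only 1 shared that sign. On array 2 COL1A2 was at -0.81, while DCN was at 0.53 and LUM at 0.43. The sum of the 3 markers ranged from 13.0 to 13.7 in pregnant animals and from 13.2 to 13.9 in cyclic animals. Macrophage markers were measured for 5 of 7 genes, with sums of 12.7 to 13.5 in pregnant animals and 12.8 to 13.5 in cyclic animals. Within that list AIF1 was at 0.38 ± 0.14 and above 0 on all 4 arrays (unadjusted p = 0.0384, adjusted p = 0.605 by limma), and CD163 was at -0.37 ± 0.21. The posterior lobe peptide OXT had ratios of -0.67, -0.62, 0.02 and -0.16 and was well above background in every channel. The OXT level ranged from 11.7 to 13.2 in pregnant animals and from 12.3 to 13.3 in cyclic animals. AVP did not pass the filter on dim probes. No red blood cell marker of 2 had a named probe, PCSK2 stood for 2 melanotrope markers at 0.40 ± 0.48 (SE, n = 4 arrays), and SOX2, the 1 of 3 folliculostellate markers with a probe, was at -0.14. Of 4 endothelial markers 3 were tested, with CDH5 at 0.51 ± 0.25, VWF at -0.24 ± 0.11 and PECAM1 at -0.19 ± 0.11. The CDH5 ratios were 0.63, 1.41, -0.06 and 0.06, and its other probe had the opposite sign. The sum of the 3 ranged from 12.01 to 12.43 in pregnant animals and from 11.98 to 12.79 in cyclic animals. The part of these cells in the chaperone ratios was not tested.

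DNAJC3, the cochaperone, had 2 probes that gave the same picture. The brighter read 12.16, 12.14, 12.35 and 12.01 in pregnant animals against 12.69, 13.01, 12.11 and 12.28 in cyclic animals. The spread was smaller among pregnant animals (SD 0.142) than among cyclic animals (SD 0.405), and the cyclic animals of arrays 1 and 2 were the high ones. Its ratios were -0.53, -0.87, 0.24 and -0.28, with a fitted value of -0.36 ± 0.18 (SE, n = 4 arrays; unadjusted p = 0.0919 by limma). The dimmer probe read 11.59, 11.39, 11.53 and 11.35 in pregnant animals against 12.17, 12.30, 11.51 and 11.60 in cyclic animals, with a fitted value of -0.43 ± 0.17 (unadjusted p = 0.0457, adjusted p = 0.605). The mean of both was -0.39 ± 0.17, or 0.761-fold. It was -0.22 without array 1 and -0.24 without array 2, and 0.18 with a single dye orientation.

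HSP90B1 had 8 probes, and their ratios separated a bright pair near 0 from 6 dimmer probes below 0. The brightest read 15.88, 15.67, 15.89 and 15.67 in pregnant animals against 16.15, 15.80, 15.88 and 15.62 in cyclic animals, with a fitted ratio of -0.09 ± 0.11 (SE, n = 4 arrays; adjusted p = 0.812 by limma). The next brightest was at 0.11 ± 0.10. The groups overlapped on both. The 6 dimmer probes had fitted ratios of -0.29 to -0.19 and unadjusted p of 0.0621 to 0.133.

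These 6 HSP90B1 probes were low on 1 pair of arrays. The lowest of them (A_72_P685293) read 14.56, 14.01, 14.32 and 13.96 in pregnant animals against 14.60, 14.85, 14.29 and 14.28 in cyclic animals, so that the pregnant animals of arrays 2 and 4 were the low ones and the cyclic animal of array 2 the high one. The ratios of the 6 were -0.84 to -0.59 on array 2 and -0.43 to -0.28 on array 4, the arrays with the pregnant animal in Cy5. On arrays 1 and 3, with the pregnant animal in Cy3, they were -0.04 to 0.12 and 0.03 to 0.23. The fitted dye effect of these probes, red over green, was -0.38 to -0.25, against -0.12 and 0.05 for the bright pair. The mean of all 8 probes was -0.17 ± 0.11 (SE, n = 4 arrays), and it was -0.09 without array 2 and 0.23 with a single dye orientation. The brightest probe was at 0.10 when the background was estimated from all spots.

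XBP1 also had a bright pair near 0 and dimmer probes below 0. Its 2 brightest probes each had a fitted ratio of 0.08 ± 0.10 (SE, n = 4 arrays). The brightest read 15.76, 15.83, 16.03 and 16.03 in pregnant animals against 15.60, 15.77, 15.92 and 16.05 in cyclic animals. With background parameters from all spots this probe was at 0.32. The groups overlapped, and 3 of 4 pairs were slightly higher in the pregnant animal. The 4 dimmer probes had fitted ratios of -0.29 to -0.24 and unadjusted p of 0.0497 to 0.104. Of these, 3 were below 0 on all 4 arrays, unlike any HSP90B1 probe. The fitted dye effects of the 4, red over green, were -0.36 to -0.05.

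The lowest of the dimmer XBP1 probes (A_72_P592109) read 12.17, 12.21, 12.54 and 12.73 in pregnant animals against 12.38, 12.76, 12.81 and 12.86 in cyclic animals. Each pregnant animal was below its cyclic partner, by 0.13 to 0.55, but the groups overlapped. The mean over all 6 probes was -0.15 ± 0.11 (SE, n = 4 arrays; adjusted p = 0.682 by limma), opposite in sign to the brightest probe. It was -0.07 without array 2 and -0.22 without array 4. The files give no position of a probe within the transcript or its splice forms, so the split could not be tied to a form of XBP1.

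**Figure D3:**
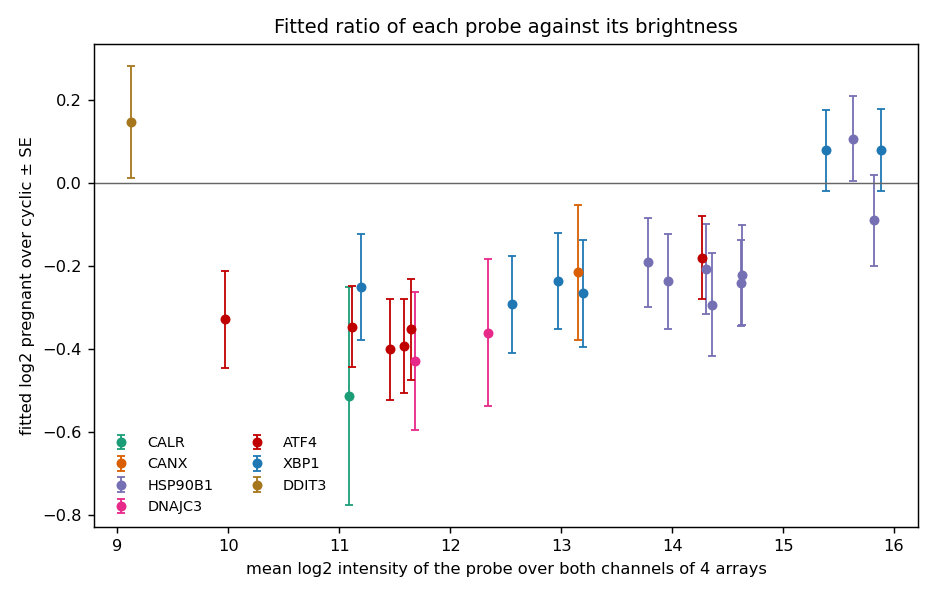
Fitted log2 ratio of pregnant over cyclic ± SE (vertical axis, n = 4 arrays) of the 25 probes against their mean log2 intensity over both channels of the 4 arrays (horizontal axis). The 4 probes above an intensity of 15, from HSP90B1 and XBP1, lie between -0.09 and 0.11, the dimmer probes of the same 2 genes lie between -0.29 and -0.19, and DDIT3 is the only probe above 0 at low intensity.

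Brightness of a probe reflects how well it hybridises as well as the amount of transcript, so the levels of different probes were not set against each other. Loess sets the median ratio near 0 at every intensity of an array, so the typical ratio of other probes of like brightness carries no test of the split. With median centring in place of loess the brightest probes of HSP90B1 and XBP1 were at -0.10 and 0.09. The cause of the split between probes of a gene was not tested.

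DDIT3, which encodes CHOP, was the only one of the 3 single-probe genes above 0. It read 9.30, 9.19, 9.13 and 9.18 in pregnant animals against 8.89, 8.86, 9.18 and 9.27 in cyclic animals. The pregnant animals were closely grouped (SD 0.0712) and the cyclic animals of arrays 1 and 2 were the low ones (SD 0.207 over 4). The ratios were 0.41, 0.32, -0.05 and -0.09, and the fitted value was 0.15 ± 0.13 (SE, n = 4 arrays; adjusted p = 0.745 by limma). CALR and DDIT3 were thus apart from 0 on the same arrays 1 and 2, in opposite directions, and near 0 on arrays 3 and 4. Without array 1 the DDIT3 value was 0.03 and without array 2 it was 0.04.

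Other genes of the compartment were taken from 5 lists of 180 genes, of which 43 had a named probe and 40 passed the filter. These lists, too, were drawn up with earlier results of these data known. Of these 40, 26 had a fitted ratio below 0, with a median of -0.08, beside 51.4% and a median of -0.01 among the brightest probes of all 2406 named genes tested. At an unadjusted p under 0.05, 2 were lower in pregnant animals and 3 were higher, beside 4.90% lower and 3.82% higher among all named genes. None passed the adjusted threshold, and every adjusted p was 0.605 or above.

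Folding enzymes and cochaperones had 9 genes tested, 6 below 0, with a median of -0.15. DNAJB11, a cochaperone of HSPA5, was at -0.25 ± 0.14 (SE, n = 4 arrays), and PDIA4, a disulfide isomerase, at -0.19 ± 0.11. The collagen chaperone SERPINH1 was at -0.23 ± 0.12 and below 0 on all 4 arrays, and FKBP10, a prolyl isomerase for collagen, was at -0.23 ± 0.10. RCN2, a calcium-binding protein of the lumen and the brightest of the list, was at 0.11 ± 0.15. None of the 9 had an unadjusted p under 0.05.

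Stress sensors and regulators had 5 genes tested of 30 listed, and all 5 lay below 0, with a median of -0.22. Among all named genes 51.4% lay below 0. The sensors ERN1, EIF2AK3 and ATF6 had no named probe, so they were not measured here. CREB3, a membrane-bound transcription factor released by cleavage, read 11.93, 12.29, 12.12 and 12.13 in pregnant animals against 12.10, 12.73, 12.15 and 12.56 in cyclic animals. Its fitted ratio was -0.27 ± 0.10 (SE, n = 4 arrays), with an unadjusted p of 0.0389 and an adjusted p of 0.605 by limma, and each pregnant animal was below its partner. ATF6B, a relative of ATF6, was at -0.25 ± 0.11, and TMBIM6, which restrains ERN1, at -0.22 ± 0.10. RTCB, the ligase that joins XBP1 mRNA after its cleavage, was at -0.18 ± 0.11. With a single dye orientation 1 of the 5 was below 0.

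Genes that ATF4 and DDIT3 are known to raise had 8 genes tested of 33 listed, and 7 of them lay above 0. Their median was 0.06. Targets without a named probe included ASNS, TRIB3 and ATF3. SLC7A1, a transporter of cationic amino acids, was at 0.28 ± 0.10 (SE, n = 4 arrays; unadjusted p = 0.0347 by limma), with ratios of 0.58, 0.06, 0.56 and -0.09. GADD45A, a growth arrest gene, was at 0.44 ± 0.17 (unadjusted p = 0.0399), with ratios of 0.39, 1.09, -0.40 and 0.69. Neither was higher on all 4 arrays. With background parameters from all spots SLC7A1 was at 0.14 (unadjusted p = 0.465) and GADD45A at 0.10 (unadjusted p = 0.572), and without array 1 GADD45A was at 0.25 (unadjusted p = 0.200). VLDLR, a lipoprotein receptor, was at 0.15 ± 0.18, DDIT4, an inhibitor of mTORC1, at 0.06 ± 0.12, and PHGDH, the entry enzyme of serine synthesis, at -0.20 ± 0.12. With a single dye orientation GADD45A was at -0.45, and 4 of the 8 were then below 0. The count below 0 was also 4 with background parameters from all spots. It was 2 with median centring and 2 to 3 when single arrays were left out.

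Genes of degradation from the endoplasmic reticulum had 8 tested, 7 below 0, with a median of -0.03 and none at an unadjusted p under 0.05. RNF5, a membrane ubiquitin ligase, was at -0.31 ± 0.14 (SE, n = 4 arrays). DERL1, a channel component, was at -0.10 ± 0.13 and FAM8A1, a cofactor of the HRD1 ligase, at -0.10 ± 0.11. The ubiquitin-conjugating enzyme UBE2J1 was at 0.06 ± 0.10. VCP, the ATPase that pulls substrates out of the membrane, was at -0.01 ± 0.10, and its sign changed under several settings.

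Translocon and glycosylation genes had 10 tested, 7 below 0, with a median of -0.16. SEC61A1, the pore of the translocon, read 7.33, 7.57, 7.53 and 7.69 in pregnant animals against 7.67, 7.78, 7.85 and 7.90 in cyclic animals. It was lower in the pregnant animal on all 4 arrays, with a fitted ratio of -0.27 ± 0.10 (SE, n = 4 arrays; unadjusted p = 0.0360, adjusted p = 0.605 by limma). GANAB, the glucosidase that trims glycans before calnexin and calreticulin bind, read 14.36, 13.65, 13.93 and 13.84 in pregnant animals against 13.75, 13.57, 13.55 and 13.66 in cyclic animals. It was higher in the pregnant animal on all 4 arrays, at 0.31 ± 0.10 (unadjusted p = 0.0265, adjusted p = 0.605). SPCS1 of the signal peptidase was at -0.21 ± 0.10, ALG5 of the glycan donor pathway at -0.20 ± 0.12 and RPN2 of the oligosaccharyltransferase at -0.20 ± 0.18. With a single dye orientation SEC61A1 stayed below 0 and GANAB above 0.

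**Figure D4:**
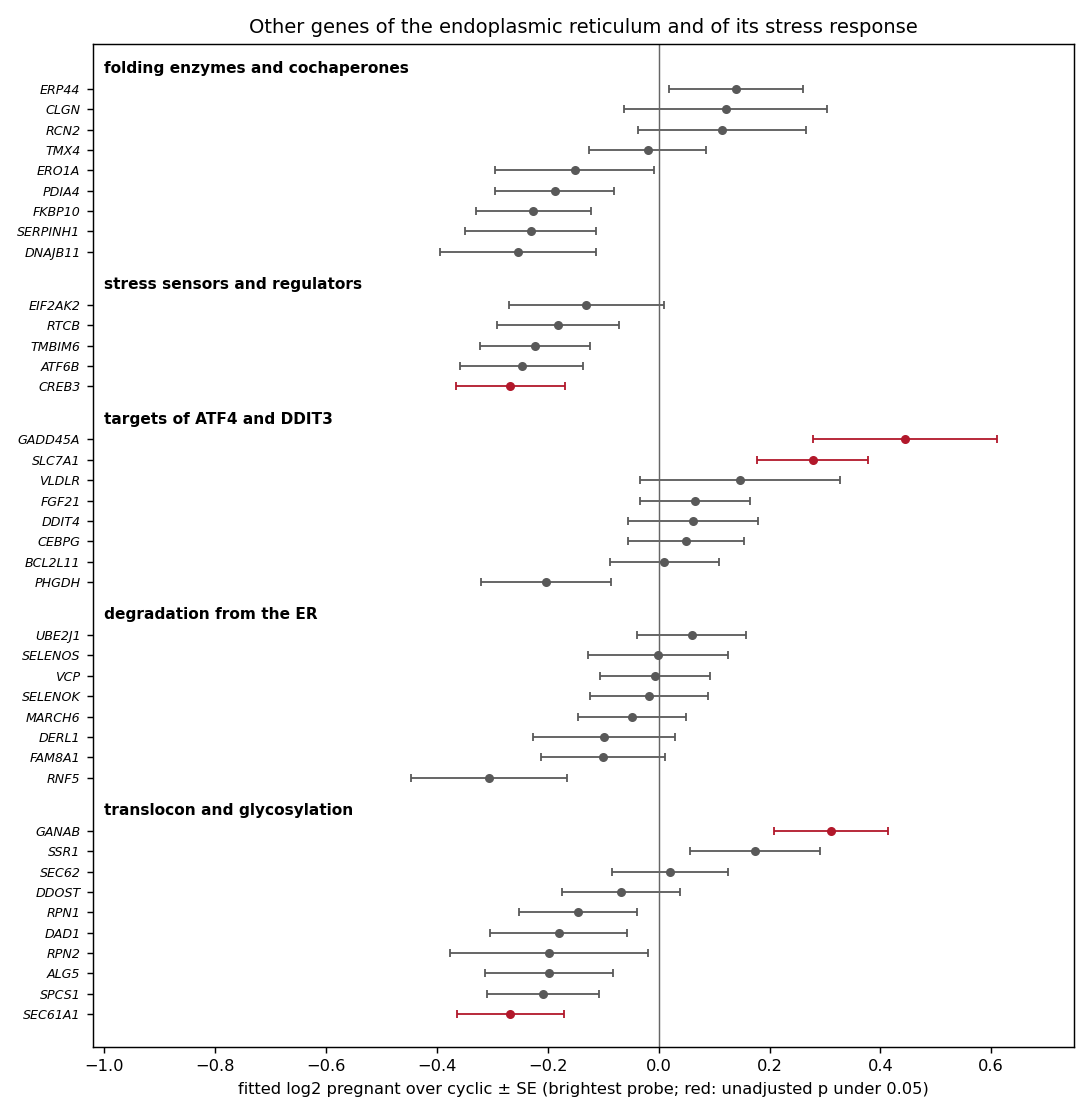
Fitted log2 ratio of pregnant over cyclic ± SE (horizontal axis, brightest probe, n = 4 arrays) of the 40 other genes of the endoplasmic reticulum and its stress response, in 5 lists; red marks an unadjusted p under 0.05. All 5 regulators tested of 30 listed lie below 0. Of 33 listed targets of ATF4 and DDIT3, 8 were tested and 7 lie above 0. A single dye orientation turns these counts to 1 below 0 and 4 above 0. Background parameters from all spots also put 4 targets below 0. No gene passed the adjusted threshold.

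The genes whose ratios on the 4 arrays lay nearest to the mean profile of the 7 brightest probes (-0.31, -0.33, 0.05 and -0.05) were POLR2I, NHLRC2, IKBKB, FADS1 and DMD. Their root mean square differences from it were 0.0493 to 0.0593 log2 units over the 4 arrays, among 2399 genes compared. The genes nearest to the mean of the 6 ATF4 probes, a profile chosen after its values were seen, were FOXO3 at 0.0408, then PRMT5, DBNDD1, DIABLO and PES1 up to 0.0838. FOXO3 had ratios of -0.27, -0.61, -0.21 and -0.32. With 4 arrays such a likeness rests on 4 values.

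**Figure D5:**
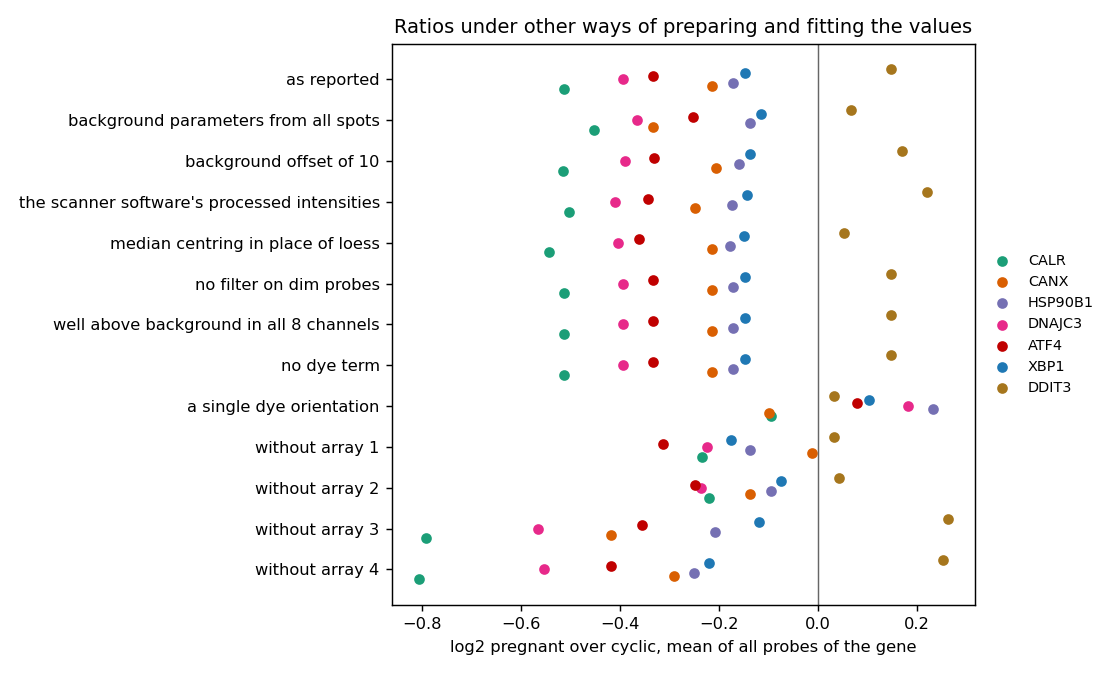
Fitted log2 ratio of pregnant over cyclic (horizontal axis) of the mean over all probes of each of the 7 genes, as reported and under 12 other ways of preparing or fitting the values (vertical axis). CALR and CANX stay below 0 and DDIT3 above 0 in every line, and the other 4 genes are below 0 in every line but the one with a single dye orientation. The lines with other filters and without the dye term repeat the reported ratios by construction and are no check of sign.

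As means over their probes, HSP90B1, DNAJC3, ATF4 and XBP1 lay above 0 only with a single dye orientation, where they were at 0.23, 0.18, 0.08 and 0.10. CALR was then at -0.09, CANX at -0.10 and DDIT3 at 0.03.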

How the data were processed

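Total RNA was prepared from each gland with a column kit, per the labels' protocols. The 4 Agilent porcine arrays, each with cRNA of a pregnant and a cyclic gilt, shared a slide and a scanner run, which left no batch term. Spots were read by Agilent Feature Extraction 10.7.3.1 at a resolution of 5 micron, per the file headers, and the deposited files hold median intensities of spots and of the surrounding background. The authors' value table holds log2 ratios whose making is not stated. At all 43553 probes spotted once, these matched log2 of the software's processed red over green intensity within 0.001 after turning them to pregnant over cyclic. The medians of its columns (0.150, -0.0102, 0.0650 and -0.0726) showed no further centring.

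Intensities were corrected by normexp (offset 50, parameters from spots not marked as outliers, 377 to 3480 marked of 45220 in a channel) and ratios by loess (span 0.3, weight 0 for 1417 control spots) with limma 3.58.1 under R 4.3.3. Tables were read with jsonlite 2.0.0 and data.table (version 1.17.8), and figures drawn with matplotlib 3.10.9 and pandas 2.3.3 under Python 3.11.15. The fixed design allowed the median or the mean foreground, and the median was used. Outlier spots (26 to 63 per array) were left out and spots of a probe averaged. Kept were probes that at least 4 of the 8 channels showed well above background, 25138 of 43603, and all 25 probes of the genes described were well above background in all 8, with no spot saturated. Each probe was fitted by limma with a gene-specific dye effect, which left 2 residual degrees of freedom, and p-values were adjusted over all kept probes by Benjamini and Hochberg. Levels per animal are log2 intensities after Aquantile normalization between arrays. The number of arrays limits the precision. The fit was tested on simulated ratios.

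The members and lists were chosen with earlier results of these data known. All members were named with every probe, and in each list of other genes the brightest gene and up to 4 with the lowest unadjusted p. The rule also asked for the genes nearest to HSPA5, which had no probe. Probes were named through RefSeq transcript accessions (assembly Sscrofa11.1), and 8 list genes through an older symbol. The array's genome build is not given in the sources used here, so no positions are printed. Alternatives covered the background, scaling, filter, dye term, dye orientation, single arrays, the probe standing for a gene, and a fit to separate channels.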

Additional observations from a re-analysis of the deposited data

How the results depend on the processing

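No probe of the 7 genes passed the adjusted threshold under any setting run, and in the fits tried CALR and CANX stayed below 0 and DDIT3 above 0. The other filters, the fit without a dye term, 1 probe for each gene and separate channels left the brightest-probe ratios unchanged. These settings could change only the p-values, so they are no check of the signs. Every fit was paired by construction, since each array holds 1 pregnant and 1 cyclic animal and its ratio, or in the separate-channel fit the correlation of its channels, enters the model. The dye orientation turned the most signs. With a single orientation 5 of the 25 probes and 2 gene means were below 0. At an unadjusted p under 0.05, 0 of the 25 were lower and 1 was higher, beside 1356 lower and 922 higher over all probes. DNAJC3 was then at 0.22 and ATF4 at 0.14 (brightest probes), and the ATF4 mean was 0.079. The counts below 0 were then 1 regulator, 2 degradation genes, 4 targets and 4 translocon genes, and none of the 40 other genes was lower at that level. Signs also turned there for FKBP10 (0.31), PDIA4 (0.15), RCN2 (-0.0014), CREB3 (0.17), TMBIM6 (0.23), ATF6B (0.23), RTCB (0.35), RNF5 (0.31), DERL1 (0.13), VCP (0.10), GADD45A (-0.45), PHGDH (0.18), VLDLR (-0.16), SPCS1 (0.13) and ALG5 (0.17).

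With background parameters from all spots HSP90B1 (brightest probe) was at 0.10, 4 targets were below 0, and 1 other gene was higher. At an unadjusted p under 0.05, 14 of the 25 probes were lower, beside 1327 lower and 801 higher over all probes. RCN2 was then at -0.019, VCP at 0.077, VLDLR at -0.0041, DDIT4 at -0.018 and RPN2 at 0.027. An offset of 10 called 3 probes of the array, and VCP was at 0.0063. It gave 4 lower among the 25, 1197 lower over all probes and 1 lower among the other genes. Processed intensities gave 3 lower among the 25, 1068 lower over all probes, 0 lower and 0 higher among the other genes, and VCP at 0.010. Median centring gave 4 lower among the 25, 1 lower and 0 higher among the other genes, and 2 targets below 0, with 1314 probes lower and 354 higher on the array. As the mean of its probes XBP1 was at -0.15. Without a filter 1726 probes were lower and 1401 higher on the array, and 6 other genes were lower. Requiring all 8 channels left 1 other gene lower, and no dye term left 1 lower and 1 higher. With 1 probe for each gene 572 of 18852 features were higher, where fewer features were tested. Separate channels (correlation 0.62) called 4 probes, with 1887 lower and 1662 higher, and 16 of the 25 and 6 other genes lower.

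Leaving out each array in turn called 0 to 7 probes of the array (7 without array 1), with 388 to 2172 lower and 432 to 1063 higher. Between 0 and 11 of the 25 were lower (0 without array 1 or array 2, 5 without array 3, 11 without array 4), and 21 stayed below 0 each time. Among the other genes 0 to 1 were lower and 0 to 1 higher, and 2 to 3 targets were below 0. Signs turned within the ranges of RCN2 (-0.030 to 0.26, below 0 without array 1 or 2), DERL1 (-0.23 to 0.029, above 0 without array 2), VCP (-0.043 to 0.030, above 0 without array 1 or 2), VLDLR (-0.097 to 0.39, below 0 without array 1), DDIT4 (-0.049 to 0.17, below 0 without array 2) and RPN2 (-0.41 to 0.017, above 0 without array 1). Causes were not tested. All 25 probes were well above background in every channel, and what limited the calls was not tested. No probe examined had 1 array far from the other 3 by Dixon's criterion (0 of 49).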
